A study of Mus musculus with 14 samples.

Results

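The transcription factor genes Hnf4a, Foxa1, Foxa2, Foxa3, Cebpa, Cebpb, Prox1, Nr5a2 and Gata4 were examined in chromatin of mouse liver. These 9 genes, of 21883 protein-coding genes, were taken by name for their role in hepatocytes, with earlier results of these data known. Each was read over its annotated gene body plus 5 kb on each side (build mm10). The files hold 6 lists of enriched regions, from chromatin immunoprecipitation sequencing of histone H3 carrying 1 methyl group (H3K4me1) or 2 methyl groups (H3K4me2) on lysine 4, and of LSD1, a demethylase that takes off either. Each list stands for 2 replicate libraries of 1 genotype that the authors combined, and 2 input libraries complete the 14 samples. Wild-type livers (WT) came from C57BL/6 mice. The other livers (YAP) came from transgenic mice of the same strain in which YAP, the co-activator restrained by the Hippo pathway, was induced by doxycycline. The labels give 50 mg/L doxycycline in the drinking water for 10 days on every sample, so whether WT mice drank it is unclear. The promoter that drives the transgene, the sex and age of the mice, and whether replicates were separate animals are not stated in these sources.

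The WT lists hold 5905 H3K4me1, 54219 H3K4me2 and 1718 LSD1 entries, and the YAP lists 6274, 51676 and 3353. The lists carry no read depth. With 1 list per genotype and antibody nothing measures the spread between replicates, so all comparisons are descriptions without a test, and a region absent from a list may lie just under its threshold. Liver is a mixture of cells, and fewer cells of a type and less of a mark per cell cannot be told apart.

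HNF4A is the nuclear receptor that maintains the hepatocyte expression programme. FOXA proteins are pioneer factors that open compacted chromatin at liver genes, C/EBP proteins drive metabolic and acute-phase genes, PROX1 and NR5A2 act with HNF4A in lipid and bile acid metabolism, and GATA4 takes part in early liver specification. These factors bind each other's genes, which gives the hepatocyte network its stability. H3K4me2 marks active and poised promoters and enhancers, and H3K4me1 is typical of enhancers. Hnf4a has a pair of promoters, of which P1, the downstream one, is used in adult hepatocytes, and P2, far upstream, is best known from fetal liver, gut and pancreas.

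Start regions of Hnf4a, Foxa3 and Cebpa in which the edge of an H3K4me2 region differed between the lists, chosen after their values were seen, place these edges on the sequence. Each is the RefSeq sequence (GRCm38.p6, the assembly of mm10) from 250 bases before to 50 bases after an annotated start, 5′ to 3′ on the strand of the gene. In the first, the upstream Hnf4a start (chr2:163506607-163506906, plus strand), capitals mark the 93 bases inside a YAP H3K4me2 region, and 0 bases lie in a WT region. In the second, the downstream Hnf4a start (chr2:163546905-163547204, plus strand), capitals mark the 108 bases inside a WT H3K4me2 region, and 0 bases lie in a YAP region. In the third and the fourth, Foxa3 (chr7:19023490-19023789, minus strand) and Cebpa (chr7:35119043-35119342, plus strand), all 300 bases lie in a WT region and capitals mark the 134 and 137 bases inside a YAP region.
Hnf4a upstream start: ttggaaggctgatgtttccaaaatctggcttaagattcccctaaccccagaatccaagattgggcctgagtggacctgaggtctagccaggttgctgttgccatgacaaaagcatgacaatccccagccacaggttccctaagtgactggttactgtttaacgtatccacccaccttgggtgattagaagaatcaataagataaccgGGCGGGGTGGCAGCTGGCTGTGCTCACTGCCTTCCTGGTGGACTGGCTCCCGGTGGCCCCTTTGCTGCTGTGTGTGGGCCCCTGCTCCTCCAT
Hnf4a downstream start: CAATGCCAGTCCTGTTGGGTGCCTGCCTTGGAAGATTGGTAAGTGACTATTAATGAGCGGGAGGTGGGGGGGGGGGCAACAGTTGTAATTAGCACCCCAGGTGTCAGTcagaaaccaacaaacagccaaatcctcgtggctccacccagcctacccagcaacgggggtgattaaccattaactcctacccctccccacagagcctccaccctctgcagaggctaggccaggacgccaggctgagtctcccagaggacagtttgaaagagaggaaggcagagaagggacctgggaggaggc
Foxa3 start: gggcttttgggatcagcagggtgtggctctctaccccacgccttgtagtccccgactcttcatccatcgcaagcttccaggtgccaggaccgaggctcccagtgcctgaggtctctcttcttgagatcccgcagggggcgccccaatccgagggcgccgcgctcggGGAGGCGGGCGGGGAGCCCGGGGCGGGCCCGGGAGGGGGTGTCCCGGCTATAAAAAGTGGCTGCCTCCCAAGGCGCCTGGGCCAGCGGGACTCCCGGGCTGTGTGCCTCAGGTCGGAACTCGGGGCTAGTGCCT
Cebpa start: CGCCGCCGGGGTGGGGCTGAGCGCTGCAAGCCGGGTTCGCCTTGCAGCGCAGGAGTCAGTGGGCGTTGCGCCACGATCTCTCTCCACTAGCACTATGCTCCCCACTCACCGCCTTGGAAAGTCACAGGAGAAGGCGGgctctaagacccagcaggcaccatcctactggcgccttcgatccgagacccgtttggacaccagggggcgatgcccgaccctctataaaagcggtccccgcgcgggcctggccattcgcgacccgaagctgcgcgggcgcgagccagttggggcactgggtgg

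H3K4me2 covered fewer bases in YAP than in WT at all 9 factor genes, by small amounts at most of them. The direction held for 7 of 9 with 50 kb flanks (Foxa1, by 1 bp, and Cebpb turned), for 6 with only the 50% of each list that scored highest (Cebpb, Prox1 and Nr5a2 turned) and for 7 with regions within 1 kb joined (Foxa1 and Cebpa turned). Coverage over the 9 windows summed to 126 kb in 106 regions in WT and 98.4 kb in 93 regions in YAP. Gata4 made up much of this difference, with 28.0 kb in 28 WT regions and 12.2 kb in 13 YAP regions. Without Gata4 the regions numbered 78 in WT and 80 in YAP. The whole H3K4me2 lists covered 52.2 Mb in WT and 49.0 Mb in YAP. Fewer covered bases in YAP were also found at 59.1% of the 14912 genes with any H3K4me2, and at 65.5% of the 6402 genes that carried a mean of at least 4 kb, as the factor genes do. None of the 9 had more covered bases in YAP, against 40.8% and 34.5% of these genes. The log2 ratio of YAP to WT covered bases, with 500 bases added to each, had a median of -0.10 over the factor genes, -0.06 over all genes with H3K4me2 and -0.08 over those with at least 4 kb. Past a 1.5-fold difference, 1 factor gene (Gata4) had fewer bases in YAP, against 7.25% of all genes with H3K4me2 and 5.59% of those with at least 4 kb. No factor gene had more by that fold, against 7.69% and 2.12%. Apart from Gata4, the sizes of the differences therefore lay within the bulk of the genes.

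**Figure D1:**
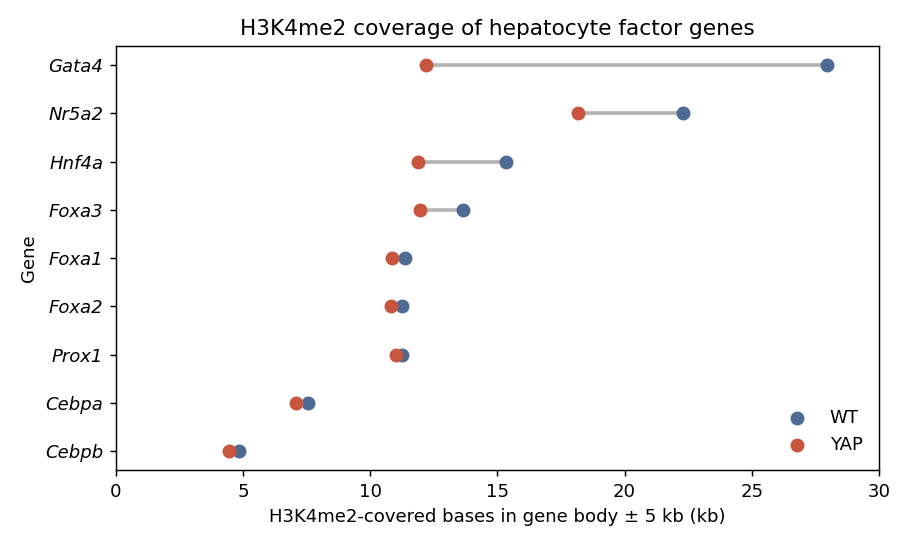
H3K4me2-covered bases (kb, horizontal axis) in the gene body plus 5 kb of each factor gene, WT in blue and YAP in red, 1 point per list. Every YAP point lies left of its WT point, and the gap is widest at Gata4, from 28.0 to 12.2 kb.

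**Figure D2:**
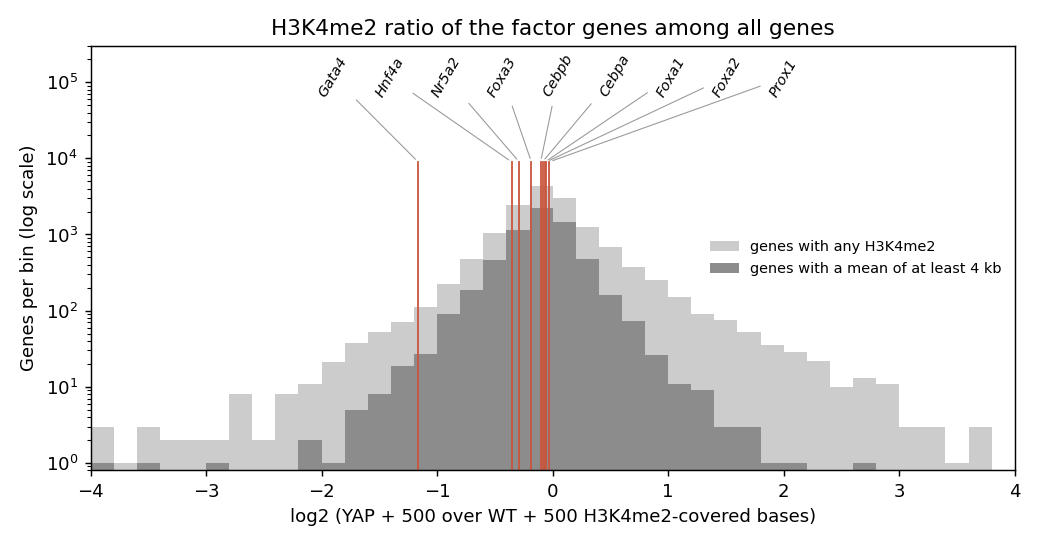
Number of genes (vertical axis, log scale) by log2 ratio of YAP to WT H3K4me2-covered bases, for all genes with H3K4me2 in light grey and those with a mean of at least 4 kb in dark grey. Red lines give the 9 factor genes, of which 8 lie between -0.36 and -0.03 and Gata4 at -1.17.

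Hnf4a lies at chr2:163506811-163572907 on the plus strand, and its starts in the RefSeq table are 40.3 kb apart, at 163506857 and 163547155. H3K4me2 covered 15.4 kb of its window in 12 WT regions and 11.9 kb in 13 YAP regions, a log2 ratio of -0.36, and 16.7% of genes with H3K4me2 had a ratio as low or lower. Of the WT-covered bases 60.5% were also covered in YAP. Over the factor genes this share ran from 42.5% (Gata4) to 93.7% (Foxa2), and over all genes it was not computed. Nearer the upstream start than the downstream one, coverage was 0 kb in WT and 2.06 kb in YAP. The rest of the window held 15.4 kb of coverage in WT and 9.83 kb in YAP. The upstream end of the gene thus carried the mark in the YAP list alone, while the body around the downstream start carried less of it in YAP.

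The YAP bases at the upstream start are a single region, chr2:163506814-163508878, 2065 bp long with a score of 205. It begins within the printed sequence and runs into the gene. The nearest WT H3K4me2 region lay 28.3 kb from that start, at chr2:163535159-163537106. Within 1 kb of the start H3K4me2 covered 0 bp in WT and 1044 bp in YAP. Starts marked in YAP alone within 1 kb made up 2.18% (463) of 21262 annotated starts of protein-coding genes, and 55 starts (0.259%) were so marked with at least as many bases. Of 11154 H3K4me2 regions found in YAP only, 35 were at least as long (0.314%) and 38 scored at least as high (0.341%). Among the 2761 genes with more than 1 annotated start, 53 (1.92%) had 1 start marked in YAP only and another marked in WT. This start therefore belongs to an uncommon class that holds other genes too. The region also lies inside Hnf4aos, a long noncoding RNA gene at chr2:163493804-163541721 that spans the upstream start, so the mark cannot be assigned to either gene from these lists.

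At the downstream start H3K4me2 covered 1300 bp within 1 kb in WT and 640 bp in YAP. The WT list has a region of 739 bp just before the start, chr2:163546274-163547012 with a score of 78, that has no counterpart in YAP. Both lists have a region beginning after the start, the WT one at chr2:163547595-163550833 (3239 bp) and the YAP one at chr2:163547516-163549023. The difference at this start rests on the low-scoring region before it: with only the 50% of each list that scored highest, the log2 ratio was 0.10 in place of -0.66. Starts marked within 1 kb in WT alone made up 1.41% of annotated starts, and none of the factor genes' 13 annotated starts was among them. H3K4me1 was listed nowhere in the Hnf4a window in either genotype.

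**Figure D3:**
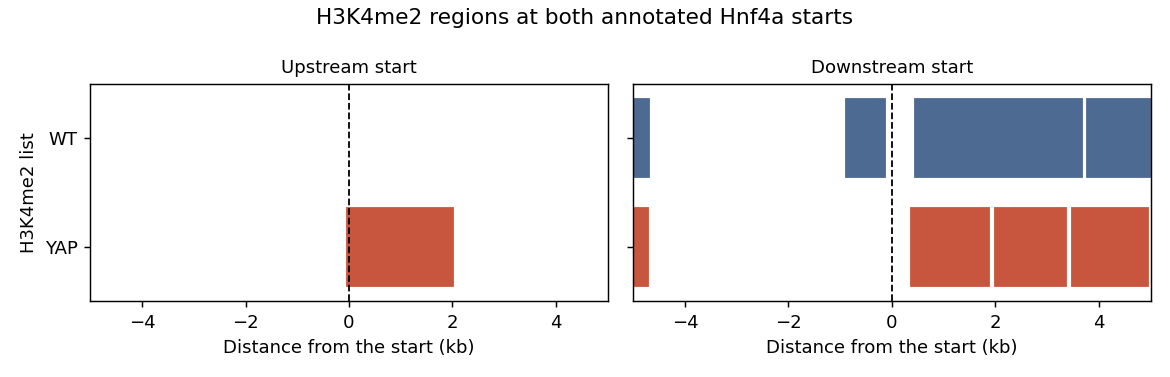
H3K4me2 regions within 5 kb of the upstream (left) and downstream (right) annotated starts of Hnf4a, by distance from the start (kb), in the WT (blue) and YAP (red) lists. At the upstream start only YAP has a region, of 2065 bp, and at the downstream start the region before the start is in WT only.

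Of the 3 FOXA genes, which encode closely related pioneer factors, Foxa1 and Foxa2 had nearly the same covered bases in both genotypes and Foxa3 somewhat fewer in YAP. Foxa1 (chr12:57540628-57548029, minus strand) had 11.4 kb in 5 WT regions and 10.8 kb in 5 YAP regions, a log2 ratio of -0.06. Its longest region is nearly the same in both lists, chr12:57536163-57544268 in WT (8.11 kb) and chr12:57536194-57544237 in YAP (8.04 kb). It ranked 37 by length among the WT regions, in the top 0.0682%, and 16 among the YAP regions, in the top 0.031%, so Foxa1 carries 1 of the broadest H3K4me2 domains of either list. Foxa2 (chr2:148042877-148046969, minus strand) had 11.3 kb in WT and 10.8 kb in YAP, each in 7 regions, a log2 ratio of -0.05. At both genes every region of each genotype overlapped a region of the other, and 92.7% (Foxa1) and 93.7% (Foxa2) of WT bases were covered in YAP. At the starts the YAP coverage was narrower. Within 1 kb of the Foxa1 start it was 1616 bp in WT and 1229 bp in YAP, and at the outermost of 3 Foxa2 starts 2001 bp in WT and 1572 bp in YAP. The Foxa1 window overlaps Ttc6, where coverage was 0.966 kb in WT and 1.26 kb in YAP.

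Foxa3 (chr7:19013283-19023539, minus strand) had 13.6 kb in 13 WT regions and 12 kb in 14 YAP regions, a log2 ratio of -0.18, with 32.3% of genes as low or lower. Of its WT bases 82.5% were covered in YAP. Within 1 kb of the start coverage was 1599 bp in WT and 1428 bp in YAP. In YAP the region over the start, chr7:19019454-19023623 (4.17 kb), ends inside the printed sequence, whereas in WT the whole printed sequence is covered. Part of the window belongs to Sympk, a gene for a scaffold of the polyadenylation machinery that starts 837 bases away on the other strand, and 2.07 kb of WT and 1.58 kb of YAP coverage lay over it.

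Cebpa and Cebpb encode leucine zipper factors, the first tied to the differentiated, non-dividing hepatocyte and the second to the acute-phase and regenerative response. Cebpa (chr7:35119293-35121928, plus strand) had 7.57 kb in 5 WT regions and 7.10 kb in 7 YAP regions, a log2 ratio of -0.09. In WT a single region of 4.30 kb, chr7:35116743-35121041, covers the start, and in YAP there is a gap of 855 bp from 35119180 to 35120034, beginning in the printed sequence. Coverage within 1 kb of the start was accordingly 2001 bp in WT and 1146 bp in YAP. Cebpb (chr2:167688915-167690432, plus strand) had 4.83 kb in 5 WT regions and 4.46 kb in 3 YAP regions, a log2 ratio of -0.10. Within 1 kb of its start coverage was 1459 bp in WT and 729 bp in YAP, and 3 small regions of 230 to 737 bp were in WT only. Its longest region runs from the end of the gene to beyond it and was the longer in YAP, chr2:167690101-167693178 (3.08 kb) against chr2:167690104-167692699 (2.60 kb) in WT. At both C/EBP genes the start carried fewer covered bases in YAP although the window totals differed little. How often starts over all genes had fewer covered bases in YAP was not computed. Narrower coverage at these starts and at the FOXA starts is therefore not shown to be particular to them.

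Prox1 and Nr5a2 encode partners of HNF4A, a homeobox factor and a nuclear receptor. Prox1 (chr1:190118035-190170827, minus strand) had 11.2 kb in 5 WT regions and 11.0 kb in 6 YAP regions, a log2 ratio of -0.03, the ratio nearest to 0 of the factor genes. With the window cut into 4 equal parts, all of it lay in the part at the 5′ end, and both annotated starts had 2001 of 2001 bp covered within 1 kb in WT and in YAP. Nr5a2 (chr1:136842562-136960448, minus strand) had 22.3 kb in 26 WT regions and 18.2 kb in 25 YAP regions, a log2 ratio of -0.29, with 21.4% of genes as low or lower. With the 50% of each list that scored highest the direction turned, to 11142 bp in WT and 13748 bp in YAP (log2 0.29). Its starts did not follow the total: within 1 kb coverage was 1883 bp in WT and 1903 bp in YAP at 136953630, and 669 bp in WT and 828 bp in YAP at 136960448. The fewer YAP bases lay inside the gene, as did nearly all the coverage (22267 of 22311 bp in WT and 18122 of 18160 bp in YAP). Of the 26 WT regions 8 were in WT only (4.17 kb), and of the 25 YAP regions 6 were in YAP only (1.85 kb). Over all regions within 5 kb of a gene, 25.3% of WT and 20.1% of YAP regions were in 1 genotype only.

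Gata4 (chr14:63198914-63271712) had the widest H3K4me2 coverage of the factor genes in WT and the lowest ratio. H3K4me2 covered 28.0 kb in 28 WT regions and 12.2 kb in 13 YAP regions, a log2 ratio of -1.17, and 1.58% of genes with H3K4me2 had a ratio as low or lower. In the WT list 0.0777% of genes had as many covered bases, and in the YAP list 1.0%. Of the WT regions 18, with 8.05 kb in all, had no overlap in YAP, while each of the 13 YAP regions overlapped a WT region and 97.4% of YAP bases were covered in WT. Coverage was lower in YAP in each of 4 equal parts of the window, 2.23 kb in WT and 0.965 kb in YAP in the first, 5.03 and 2.72 kb in the second, 15.3 and 7.75 kb in the third, and 5.41 and 0.752 kb in the fourth. The longest region had nearly the same extent in both, chr14:63241358-63246814 (5.46 kb) in WT and chr14:63241557-63246695 (5.14 kb) in YAP. Another block was largely kept, chr14:63229908-63233188 (3.28 kb) in WT and chr14:63230270-63232989 (2.72 kb) in YAP. Other long WT regions were mostly not covered in YAP. Of chr14:63234604-63238084 (3.48 kb) 221 bp were covered, and of the WT regions of 2.62 and 2.49 kb 1093 and 888 bp were. The YAP list thus held nearly a subset of the WT coverage, with both long and short regions reduced around the retained blocks. The reference table gives no strand and no start for Gata4.

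In adult liver Gata4 is also expressed in sinusoidal endothelial and stellate cells, and marker genes of those cells differed between the lists as well. Of 6 stellate markers, 3 (Reln, Dcn and Hand2) had less coverage in YAP, 1 (Lrat) had more, and Des and Pdgfrb were at 0 in both, with sums of 9.46 kb in WT and 2.15 kb in YAP. Of 6 endothelial markers, 5 had more bases in YAP and Lyve1 was at 0 in both, with sums of 3.66 kb in WT and 7.45 kb in YAP. Of 6 macrophage markers, 5 had more in YAP and Vsig4 was at 0 in both, with sums of 5.15 and 13.3 kb. All 6 hepatocyte markers were covered in both genotypes and had fewer bases in YAP, with sums of 63.8 and 44.2 kb. These 6 are also among the 22 hepatocyte genes described further below, of which 17 had fewer bases in YAP and 5 had more. Over all genes with any H3K4me2, 59.1% had fewer bases in YAP and 40.8% had more. Several marker values were near 0, with 4 endothelial and 4 macrophage markers at 0 in WT. Reln alone held 6.38 kb of the stellate sum in WT. The part of these cell types in the Gata4 difference, or in those of the other factor genes, was not tested.

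**Figure D4:**
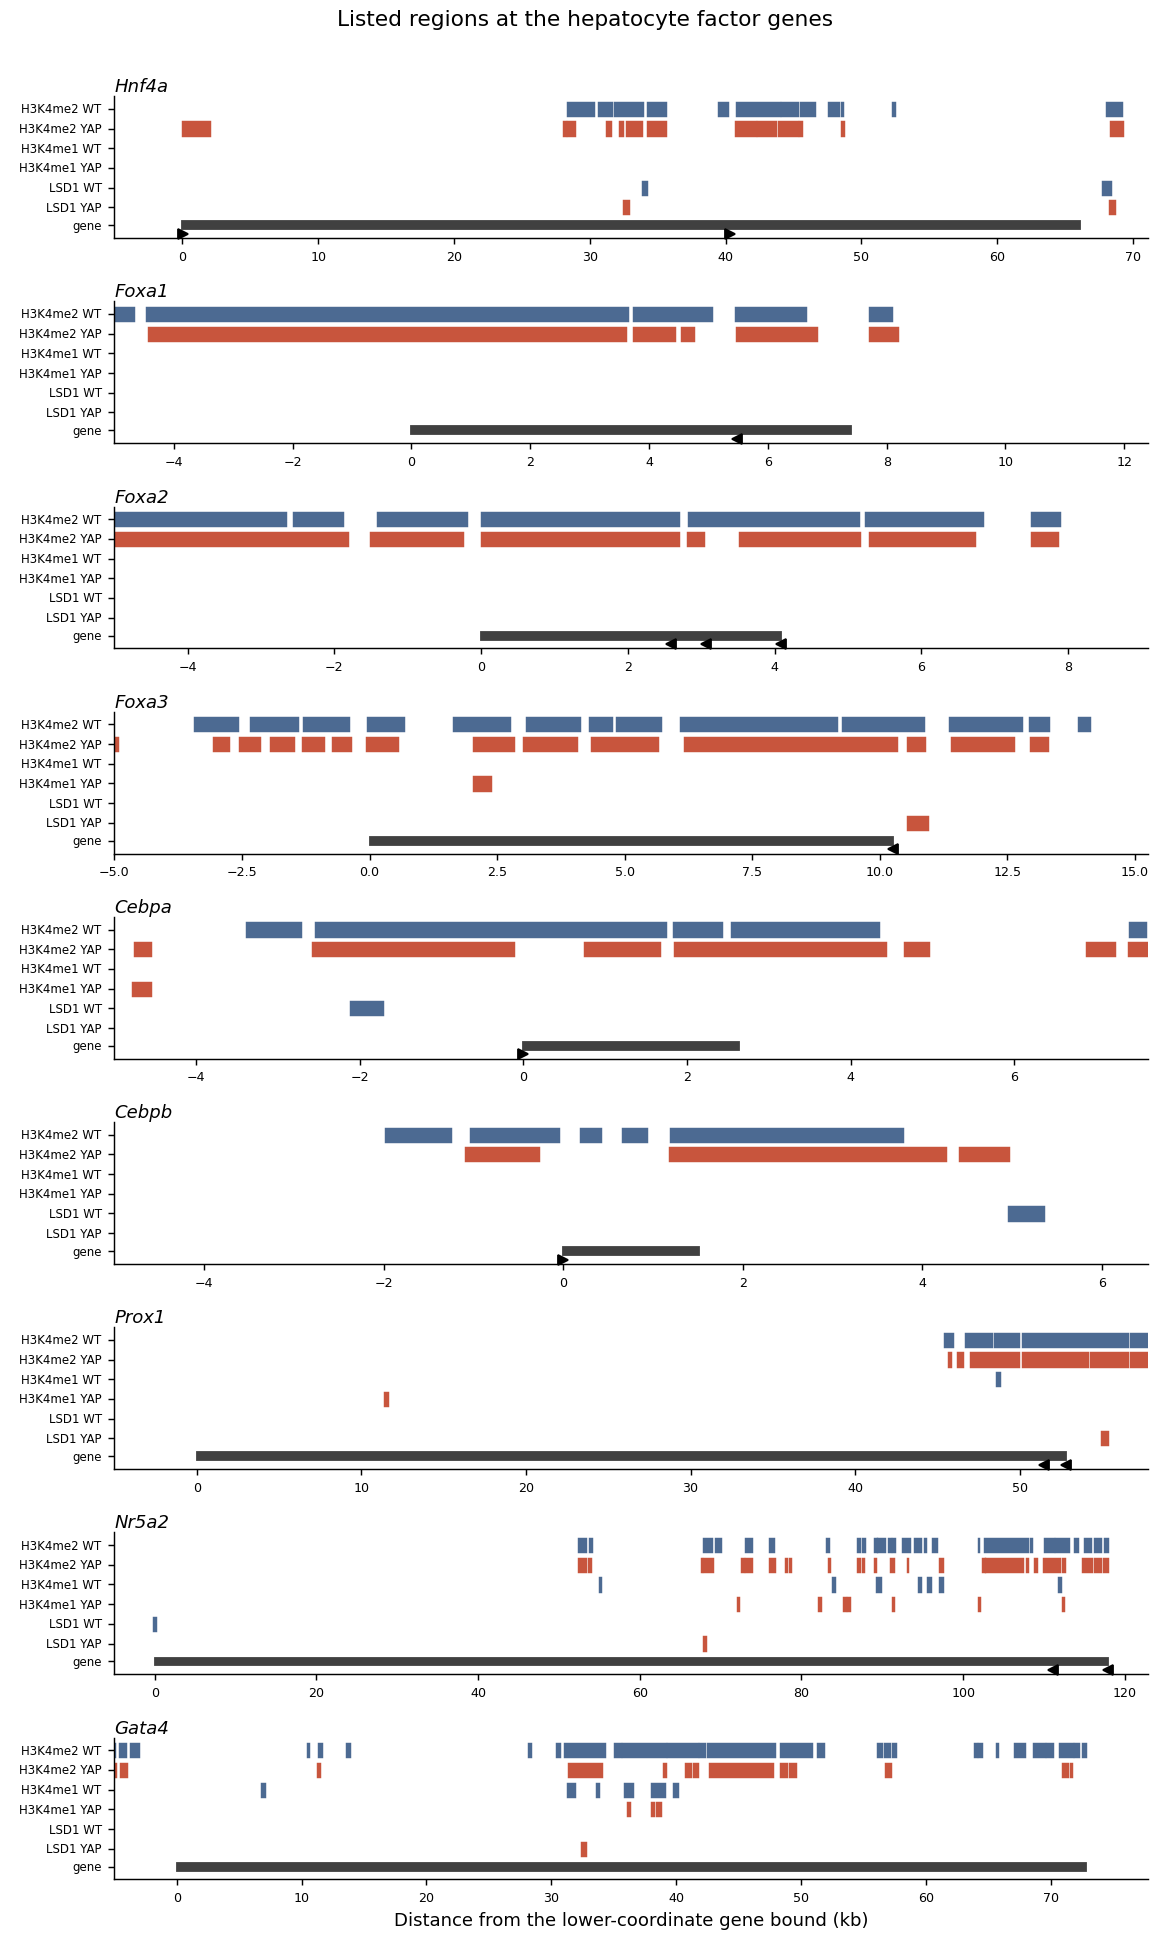
Listed H3K4me2, H3K4me1 and LSD1 regions in WT (blue) and YAP (red) over each factor gene plus 5 kb, by distance from the lower-coordinate gene bound (kb). Black bars are genes and triangles annotated starts with their direction, and Gata4, with 18 WT-only H3K4me2 regions, has no start in the reference table.

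Taken by region, 72 of 106 WT H3K4me2 regions at the factor genes overlapped a YAP region by at least 1 bp (67.9%, Wilson 95% interval 58.5 to 76.0%, counting error only), against 74.7% of all WT regions within 5 kb of a gene. Of 93 YAP regions 80 overlapped a WT region (86.0%, interval 77.5 to 91.6%), against 79.9% of all. Both intervals include the value over all genes, but they treat regions clustered in 9 genes as independent and are no test. Gata4 held 18 of the 34 WT regions without overlap, and without it 62 of 78 WT regions were shared (79.5%, interval 69.2 to 87.0%) and 67 of 80 YAP regions (83.8%, interval 74.2 to 90.3%). The 34 WT-only regions were 182 to 988 bp long with a median of 406 bp, against 1088 bp for the shared WT regions. The 13 YAP-only regions were 182 to 2065 bp long with a median of 325 bp. The region at the upstream Hnf4a start was thus the longest H3K4me2 region in 1 genotype only at any of the 9 genes.

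LSD1 sites were listed at 7 of the 9 factor genes in at least 1 genotype, against 14.0% of all genes and 29.5% of those with at least 4 kb of H3K4me2. Foxa3, Prox1 and Gata4 had a site in YAP only, 3 of 9 genes, against 8.08% of all genes and 17.0% of those with at least 4 kb. Cebpa and Cebpb had a site in WT only, against 2.85% and 5.45%. Hnf4a and Nr5a2 had sites in both genotypes, against 3.05% of all genes, and Foxa1 and Foxa2 had none. The YAP list is the longer one (2949 joined sites against 1500). With equal numbers of sites, the highest-scoring ones of YAP, Hnf4a and Nr5a2 had sites in WT only and Prox1 had none, and with the 50% of each list that scored highest Hnf4a, Nr5a2 and Prox1 had none. With so few genes these counts describe the 9 genes and set no order between the genotypes.

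At the genes with LSD1 in YAP only, the site lay upstream of the start (Foxa3 and Prox1) or inside the gene (Gata4). The Foxa3 site, chr7:19023820-19024219, has the highest score of the LSD1 lists (1000), shared by 25.6% of YAP sites. Its centre is at -481 bp from the Foxa3 start, between that start and the start of Sympk, 281 bp from the first and 158 bp from the second at its nearer edges, so it could belong to either gene. The Prox1 site, chr1:190172986-190173385 (score 576), lies 2.16 kb upstream of the gene, with 2000 bp of H3K4me2 in WT and 1916 bp in YAP within 1 kb. The Gata4 site, chr14:63231268-63231667 (score 907), lies in the gene, where H3K4me2 covered 2000 of 2000 bp within 1 kb in both genotypes and H3K4me1 covered 383 bp in WT and 0 bp in YAP. H3K4me2 was thus listed in YAP as in WT beside all 3 of these sites, at Foxa3 with 1513 bp in WT and 1287 bp in YAP.

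The genes with LSD1 in WT only were the C/EBP genes. The Cebpa site, chr7:35117177-35117572 (score 774), lies 1.72 kb upstream of the gene on H3K4me2 that both genotypes had, with 1833 bp in WT and 1666 bp in YAP within 1 kb. The nearest YAP site to Cebpa was 11.1 kb away from the gene. The Cebpb site, chr2:167693874-167694269 (score 899), lies 3.44 kb downstream, with 0 bp of H3K4me2 in WT and 663 bp in YAP within 1 kb. Within this 1 kb zone H3K4me2 was therefore listed beside the Cebpb site only in the genotype in which LSD1 was not. That rests on the zone, since a WT region ends shortly before it, at 167692699. The YAP region at the site overlaps it by 14 bp and has a low score of 57.

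Hnf4a had 2 sites in each genotype. The downstream one, chr2:163574537-163575152 in WT (score 542, 2 overlapping entries) and chr2:163575040-163575439 in YAP (score 705), overlapped between the lists. The one inside the gene was at chr2:163540659-163541054 in WT and chr2:163539268-163539667 in YAP, 991 bp apart, so that by the 1 bp overlap each was found in 1 genotype only. None lay within 1 kb of either Hnf4a start. Nr5a2 had 1 site in each genotype at places 67.6 kb apart, chr1:136842322-136842717 at the 3′ end of the gene in WT (score 682) and chr1:136910348-136910747 inside it in YAP (score 607). The nearest sites to Foxa2 were 513 kb away in WT and 33.4 kb away in YAP, and those nearest Foxa1 were 2070 kb away in WT and 1550 kb away in YAP. In all, 3 of 5 WT sites at the factor genes overlapped WT H3K4me2, against 72.3% of all WT sites, and 6 of 6 YAP sites overlapped YAP H3K4me2, against 64.9%. These shares include sites far from genes. All 6 YAP sites also overlapped WT H3K4me2. Every WT site but that of Nr5a2 overlapped YAP H3K4me2, at Cebpb by 14 bp, so the counts set no order between the genotypes.

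H3K4me1 was sparse at the factor genes, with 14 WT and 13 YAP regions, most of them at Nr5a2 and Gata4. At Gata4 its coverage was 3.42 kb in 6 WT regions and 0.904 kb in 3 YAP regions, all between chr14:63205685 and 63239069, and each YAP region overlapped a WT region. At Nr5a2 it covered 2864 bp in 7 WT regions and 2051 bp in 7 YAP regions, and no region overlapped between the genotypes. Both genes had fewer H3K4me1 bases in YAP, which 43.8% of genes with any H3K4me1 had, and 3 factor genes had more, as 56.2% did. Foxa3 had a region in YAP only, chr7:19015320-19015668, and so had Cebpa, at chr7:35114505-35114745, a class that held 4.98% of all genes. None of the 9 had H3K4me1 in WT only, against 3.16%, and 3 had it in both, against 6.33%. Prox1, the third of these, had 1 region in each genotype at different places (WT 263 bp, YAP 264 bp), and Hnf4a, Foxa1, Foxa2 and Cebpb had none. Over the 9 genes 2 of 14 WT regions (14.3%) were shared with YAP, against 26.1% of all WT regions near genes, and 3 of 13 YAP regions (23.1%), against 24.7%. All the shared ones were at Gata4.

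Among 30 further hepatocyte factors and regulators, all with H3K4me2 in both genotypes, coverage was lower in YAP at 27 and higher at 3, with a median log2 ratio of -0.18. That is 27 of 30, against 65.5% of genes with at least 4 kb having fewer. Past 1.5-fold, 6 had fewer and 0 had more, against 5.59% and 2.12% of those genes. The lowest ratios were those of Nr1i3, the xenobiotic receptor CAR (5.85 kb in WT, 2.15 kb in YAP, log2 -1.26), Nr3c1, the glucocorticoid receptor (21.5 and 11.3 kb, -0.91), and Ppara, the receptor that drives fatty acid oxidation (29.3 and 16.0 kb, -0.86). Those with more were Nr1h3, the oxysterol receptor LXR alpha (10.2 and 14.4 kb, 0.48), Atf5 (5.85 and 6.70 kb, 0.18) and Cebpd (4.92 and 5.09 kb, 0.05). LSD1 was listed in YAP only at 12 of the 30, among them Hhex, Cebpg, Rxra, Nr1i3, Nr2f2, Esrra, Nr3c1, Nfia, Nfib, Atf5 and Klf15, against 17.0% of genes with at least 4 kb of H3K4me2. It was in WT only at 1, Nr0b2, the repressor SHP that limits bile acid synthesis, and in both genotypes at 7. Not every gene of the list reaches 4 kb, and over all genes the shares are 59.1% with fewer bases, 7.25% with fewer past 1.5-fold and 8.08% with LSD1 in YAP only. LSD1 in WT only was found at 2.85% of all genes and in both genotypes at 3.05%. Of the 6 with fewer bases past 1.5-fold, Nr1i3, Nr3c1 and Rxra had LSD1 in YAP only, Ppara in both, Nr0b2 in WT only and Nr1h4 in neither. The other genes of the list with LSD1 in YAP only differed by less than 1.5-fold, from -0.42 (Nfib) to 0.18 (Atf5). A link between LSD1 and H3K4me2 at these genes was not tested.

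Among 22 hepatocyte genes that these factors are known to bind, 17 had fewer H3K4me2 bases in YAP and 5 had more, with a median of -0.22, and 7 had fewer past 1.5-fold, to be read against the same shares. The lowest ratios were those of Cyp7a1, the rate-limiting enzyme of bile acid synthesis (6.92 kb in WT, 2.67 kb in YAP, log2 -1.23), Cps1, the entry enzyme of the urea cycle (15.5 and 7.75 kb, -0.95), and F7, coagulation factor VII (5.73 and 2.75 kb, -0.94). The highest were those of Trf, transferrin (8.83 and 12.5 kb, 0.48), Afp, the fetal serum protein alpha-fetoprotein (2.35 and 3.02 kb, 0.30), and Pck1, an enzyme of gluconeogenesis (4.76 and 5.44 kb, 0.17). LSD1 was in YAP only at 5 (Apoa2, G6pc, Tat, Cyp7a1 and Fgb), against 8.08% of all genes and 17.0% of those with at least 4 kb of H3K4me2. It was in WT only at 2 (Apoa1 and Cyp8b1), against 2.85% and 5.45%. Both lists had lower medians than the 9 core factors (-0.10). These lists were chosen by role with earlier results of these data known, and their differences from the core factors were not tested.

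**Figure D5:**
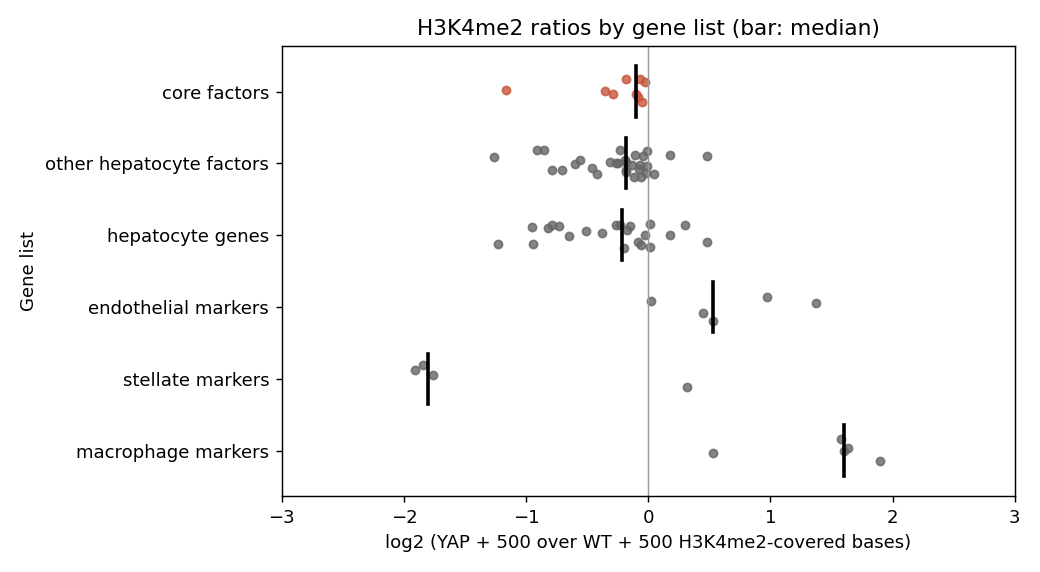
Log2 ratio of YAP to WT H3K4me2-covered bases (horizontal axis) for each gene with H3K4me2 in the core factors (red) and in the other lists (grey), with the median of each list as a black bar. The core factors centre at -0.10 with Gata4 apart at -1.17, and the macrophage markers centre at 1.60.

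The start sequences were searched on both strands for short motifs of the factors themselves and of TEAD, which carries YAP to DNA. RefSeq sequences were matched for 13 starts of 8 of the 9 genes. The FOXA motif TGTTTAC, held by 3.0% of 21237 promoters, was found at Foxa1 at -141. The GATA motif AGATAA (9.65%) was found in 3, at position -52 of the upstream Hnf4a start, at Foxa2 and at Nr5a2. The C/EBP motif TTGCNNAA (10.2%) and the TEAD motif GGAATG (13.6%, at -58) were found in the same 1 promoter, that of the Nr5a2 start at 136953630. The HNF4A motif CAAAGTCCA (0.452%) and the AP-1 motif TGANTCA (6.99%) were in none of the 13 windows. A match describes letters in these windows and no binding.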

How the data were processed

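The members and the gene lists were chosen with earlier results of these data known. All 9 members are named, and of the other lists the genes with the 3 lowest and 3 highest ratios and those with LSD1 in 1 genotype only, as well as neighbouring genes. Some genes and the biliary and leukocyte marker lists are not reported here.

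Chromatin was digested with micrococcal nuclease and libraries were amplified by 15 cycles of PCR, per the labels' protocols. Per the submitters' processing notes, reads were handled with BWA, Trimmomatic 0.39, Picard 1.126, SAMtools 1.7, deepTools 3.3.0 and bedtools 2.26.0 on build mm10. The peak caller, its threshold and the way replicates were combined are not stated in these sources. In the H3K4me1 and H3K4me2 lists the deposited score was 10 times the deposited −log10 p-value. The unit of the LSD1 score deposited by the authors is not stated. Scores rank regions within a list only.

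Overlapping or touching regions were joined (LSD1 to 1500 in WT and 2949 in YAP, histone lists unchanged), and chromosomes 1 to 19, X and Y were used. Bounds came from a RefSeq table of GRCm38.p6, which gives neither exons nor introns, and starts and strands from its promoter table. A region was shared if it overlapped the other list by at least 1 bp. A gene was called past a 1.5-fold ratio. Values were computed with pandas 2.3.3 and numpy 2.4.6 in Python 3.11.15 and drawn with matplotlib 3.10.9. Overlaps and covered bases were tested on simulated data with bedtools 2.31.1.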

Additional observations from a re-analysis of the deposited data

How the results depend on the processing

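No paired analysis was possible because each list combines both replicates, and for the same reason no replicate could be left out. Of 81 values of single members under alternatives, 74 had fewer H3K4me2 bases in YAP, as in the reported values, and the other 7 had more. The settings with 100 or 2000 bases added change the ratio alone, so no direction could turn under them. Hnf4a, Foxa3 and Gata4 had fewer H3K4me2 bases in YAP in 10 of 10 settings, the reported one and those 2 included. Gata4 had log2 ratios from -1.29 to -0.60. Members with more H3K4me2 bases in YAP numbered 2 with 50 kb flanks, 3 with the 50% of each list that scored highest and 2 with regions within 1 kb joined, against 0. The members that turned were Foxa1 and Cebpb (0.0 and 0.31), Cebpb, Prox1 and Nr5a2 (0.11, 0.11 and 0.29), and Foxa1 and Cebpa (0.13 and 0.09). Members with fewer past 1.5-fold numbered 2 over the gene body alone, Gata4 and Cebpb (-0.68). Over the gene body alone, 1 member had LSD1 in YAP only, 0 in WT only, and 1 had H3K4me1 in YAP only. With 50 kb flanks 1 had LSD1 in WT only and 4 in both. With equal numbers of regions 4 had LSD1 in WT only, Hnf4a and Nr5a2 added, and 0 in both, and with the highest-scoring 50% 0 in both. H3K4me2 regions in WT only numbered 57 and in YAP only 43 when sharing needed 50% of both regions, and 10 and 4 when within 1 kb sufficed. Alternatives chosen after seeing the data were the zones around the Hnf4a starts, the genes with at least 4 kb, and the counts without Gata4 (0 members past 1.5-fold, 16 H3K4me2 regions in WT only). The upstream Hnf4a start had 0 WT bases in every zone and list tried (log2 1.63 to 2.36). The downstream start turned from -0.66 to 0.10 with the highest-scoring 50%. The cause of these changes was not tested.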
